A study of Mus musculus with 17 samples.

Results

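Translesion synthesis genes were followed in erythroid blasts of Spi1-transgenic mice, from preleukaemia to leukaemia and with or without Fanca. The 10 genes were chosen by name for their known roles, with earlier results of these data known: the polymerase genes Polh, Polk, Poli, Rev1, Rev3l, Polq and Poln, the polymerase zeta subunit gene Mad2l2, and the regulators Rad18 and Usp1. All 10 were found, among 26029 genes of the count table of model 1 and 24659 genes of the table of model 2. All mice carried the TgSpi1 transgene, which constitutively expresses the transcription factor SPI1, and their cells were grown with erythropoietin (EPO). Model 1 (strain background DBA2JxFVB/N) held 4 TgSpi1FA+/+ mice with preleukaemia, 3 TgSpi1FA−/− mice with preleukaemia and 3 TgSpi1FA−/− mice with leukaemia, where FA−/− stands for the loss of both Fanca alleles. Model 2 (strain background DBA2J) held 4 preleukaemic and 3 leukaemic TgSpi1FA+/+ mice, whose leukaemias arose after blood transfusion. Each mouse gave 1 library, which is named here by the end of its sample title, and the labels give no age. The cells were kept in culture before RNA was extracted, so the levels are those of cultured blasts. The deposited column names call preleukemic_40, preleukemic_77 and preleukemic_224 leukaemic, whereas their sample titles call them preleukaemic, and the titles were followed.

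A replicative polymerase stops at a damaged base, and translesion polymerases can copy past it. RAD18 ubiquitinates the sliding clamp PCNA at the stalled fork, which recruits polymerases of the Y family (eta, kappa, iota and REV1), and polymerase zeta then extends the new strand. USP1 removes ubiquitin from PCNA and from FANCD2, the latter being a central protein of the Fanconi anaemia pathway to which FANCA belongs, and that pathway uses REV1 and polymerase zeta when it repairs crosslinked DNA. Polymerase theta, the product of Polq, is better known for joining broken ends through short stretches of homology.

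The libraries of model 1 held 29964576 to 38217654 counts and those of model 2 held 37726753 to 40514205, and each model had its own library protocol. Fanca, the deleted gene, had 28.2 to 83.5 CPM (counts scaled to library size) in the TgSpi1FA+/+ preleukaemic libraries of model 1, 28.1 to 44.1 CPM in model 2 and 0.615 to 2.30 CPM in the 6 TgSpi1FA−/− libraries. The libraries of preleukemic_445 and preleukemic_479 stood apart as a pair. The chi-square of their counts, divided by its degrees of freedom, was 9.18, while the 11 other pairs within a group of model 1 gave 126 to 411. A further deposited table holds other counts of 7 mice of model 1. Each library of the first table was set against the libraries of that table by the correlation of its deviations over 8638 genes, and 6 of the 7 were most like the one with their own number. The exception was preleukemic_445, which was more like preleukemic_479 of the further table (0.60) than preleukemic_445 (0.52), so these 2 libraries may not stand for 2 mice. Of 10 erythroid markers, Tfrc (median 1994 CPM), Gata1 (421 CPM) and Tal1 (352 CPM) were the highest in model 1. In model 2 these had medians of 1768, 290 and 206 CPM. Klf1 had 99.2 to 351 CPM in model 1 and 44.4 to 119 CPM in model 2. Other erythroid markers varied widely between libraries. Hbb-bt had 0.101 to 1136 CPM and Slc4a1 13.8 to 339 CPM in model 1, and Alas2 had 1.69 to 86.8 CPM in model 2. Csf1r (myeloid) had at most 33 counts and Cd3e (T lymphoid) at most 6 counts in any library of the 2 tables. Other markers of these cell types were higher. Cd68 (myeloid) had 50 to 128 counts in model 1 and 113 to 367 in model 2, and Lck (T lymphoid) 27 to 191 and 31 to 305. The summed markers of megakaryocytes reached 274 CPM, those of stroma and endothelium 274 CPM and those of mast cells 110 CPM in single libraries.

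Levels of the 10 genes spanned a wide range per kilobase of exon. Usp1 was the highest member in each of the 5 groups, with a median of 62.9 CPM per kb over the 17 libraries, and its range did not reach that of the next member in any group. Mad2l2 (12.2 CPM per kb), Rad18 (11.7), Rev1 (11.2), Polh (9.50) and Poli (6.90) followed, and in the preleukaemic groups the ranges of neighbours among these overlapped. In leukaemia, Mad2l2 lay above Rad18 without overlap in TgSpi1FA−/− cells, and Rev1, Polh and Poli lay apart in that order in model 2. Polq (4.33 CPM per kb), Rev3l (3.91) and Polk (2.96) came lower. Poln was the lowest in every group, with a median of 0.166 CPM per kb and 10 to 119 counts per library, and its range lay below that of the next member in each. The place of Polq depended on the model and the stage. In the preleukaemic libraries of model 1 it overlapped with Poli, Polh and Mad2l2 in both genotypes, and with Rev1 in TgSpi1FA−/− cells only. In TgSpi1FA−/− leukaemic cells it lay below Poli without overlap and overlapped with Rev3l. Exon length is that of all annotated exons together, so values per kb are approximate.

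**Figure D1:**
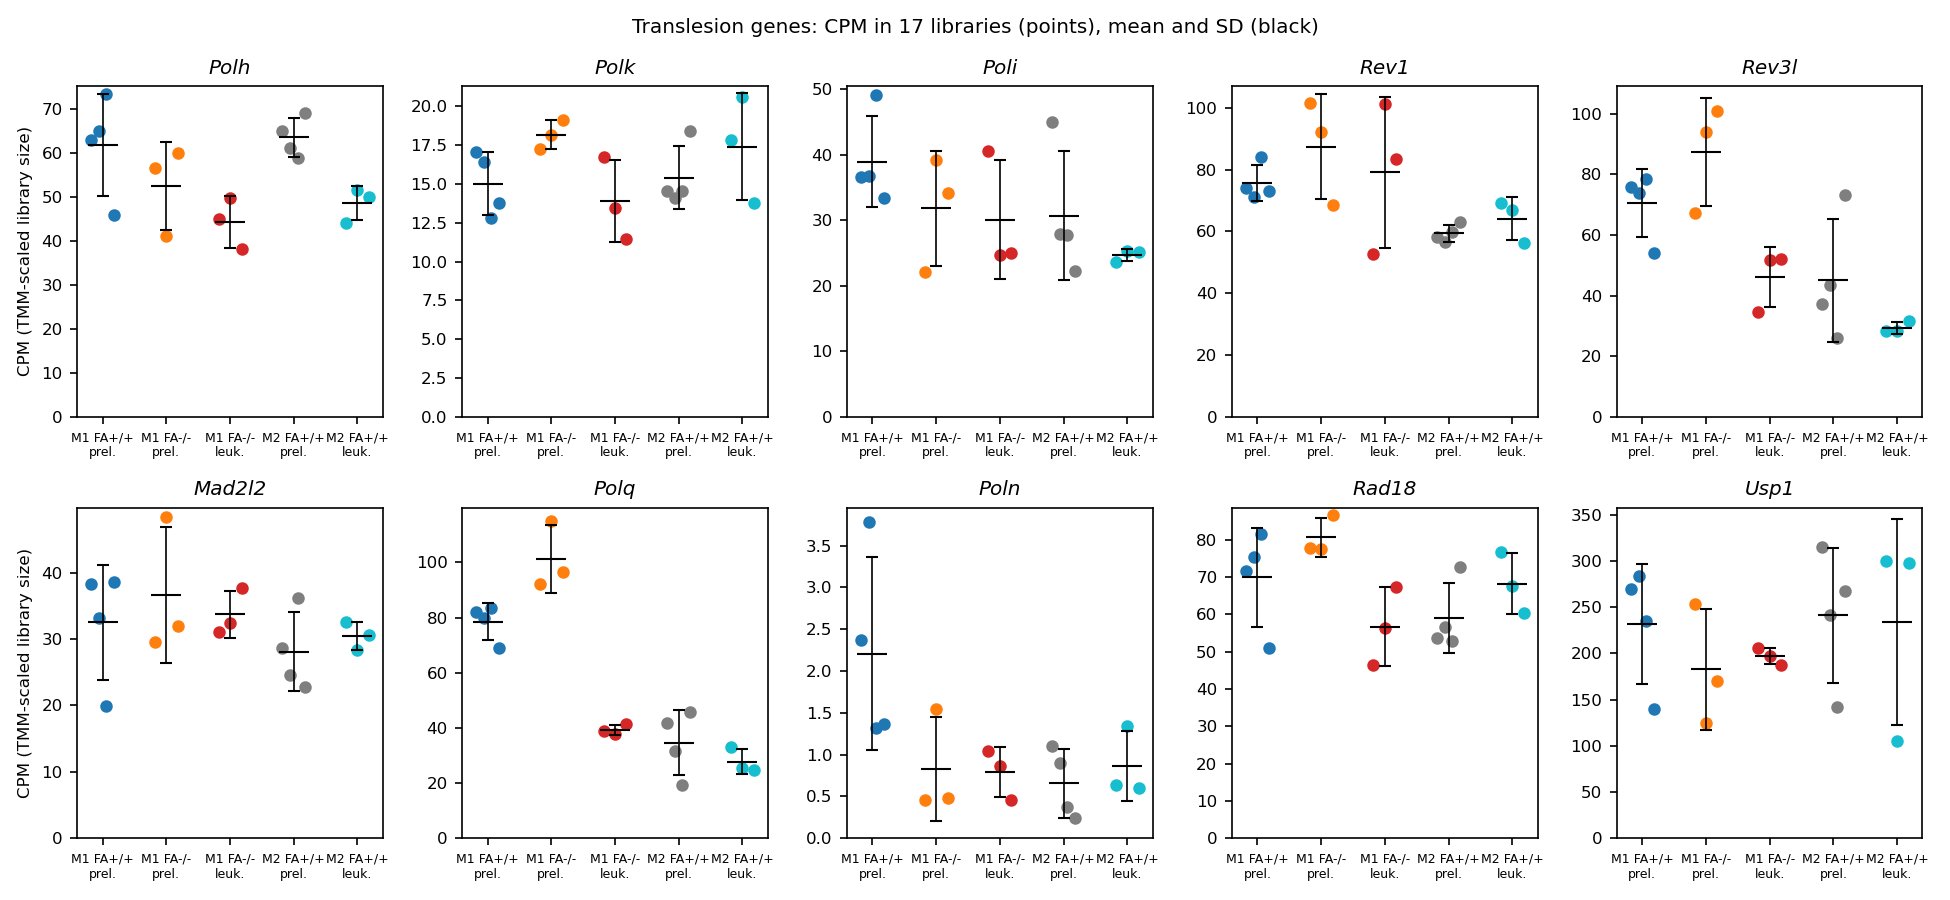
CPM (TMM-scaled library size, vertical axis from 0) of each of the 10 translesion genes in the 5 groups (M1 and M2, models 1 and 2; prel., preleukaemic; leuk., leukaemic). Points are libraries of single mice and black bars are the mean and SD; Polq and Rev3l had lower values in each TgSpi1FA−/− leukaemic library than in each preleukaemic library of model 1.

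The first comparison asked what changed between preleukaemic and leukaemic cells in the absence of FANCA. Polq and Rev3l fell in TgSpi1FA−/− leukaemic cells, and the other 8 members did not pass the test. All 10 members had enough counts to be tested. Of 13393 genes tested, 13.3% passed an adjusted p under 0.05 with a fold change of at least 1.5 (edgeR's quasi-likelihood test with Benjamini-Hochberg adjustment), and 6.49% did so with a lower level. The members gave 2 of 10, both lower. In 4 of 10 members (Polq, Rev3l, Rad18 and Polk) the leukaemic libraries lay below all the preleukaemic ones, against 19.3% of all genes in that direction and 38.7% in either. The median log2 fold change of the members was −0.19, with 1 of 10 above 0, beside a median of −0.0012 and 49.9% above 0 over all genes.

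Polq lies on the plus strand of chromosome 16 (chr16:37011786-37095417, GRCm38). It had 92.0 CPM in preleukemic_77, 115 CPM in preleukemic_224 and 96.4 CPM in preleukemic_40 among the TgSpi1FA−/− preleukaemic mice. In the TgSpi1FA−/− leukaemic mice it had 39.05 CPM in leukemic_26, 37.8 CPM in leukemic_28 and 41.3 CPM in leukemic_39. The 3 leukaemic libraries were close together, and all lay far below the lowest preleukaemic one. The mean was 39.4 ± 1.80 CPM (SD, n = 3) against 101 ± 12.3 CPM (SD, n = 3), a 2.57-fold lower level with a log2 fold change of −1.36 (SE 0.13, 95% interval −1.65 to −1.07, adjusted p = 0.00195). Only 13 of the 13393 genes had a smaller p. With each mouse left out in turn, the log2 fold change stayed between −1.41 and −1.24 and the adjusted p between 0.00387 and 0.0183, so the call rested on no single mouse. A bulk library cannot tell fewer cells that express a gene from less RNA per cell, and this holds for every level given here. The exact permutation test of the 3 libraries against 3 gave p = 0.1, the smallest it allows (two-sided).

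Rev3l encodes the catalytic subunit of polymerase zeta (plus strand, chr10:39732118-39875211). It had 67.3 CPM in preleukemic_77, 93.9 CPM in preleukemic_224 and 101 CPM in preleukemic_40 before leukaemia, and 34.6 CPM in leukemic_26, 51.7 CPM in leukemic_28 and 52.0 CPM in leukemic_39 in leukaemic mice. Each leukaemic library was lower than each preleukaemic one, with wider spread than for Polq. The log2 fold change was −0.92 (SE 0.23, 95% interval −1.43 to −0.41, adjusted p = 0.0308), a 1.89-fold lower level. This call was close to the threshold. Leaving out leukemic_26, leukemic_28, leukemic_39, preleukemic_224 or preleukemic_40 raised the adjusted p to 0.0520, 0.0749, 0.0610, 0.0956 and 0.0803, and fitting the compared groups alone gave 0.0702, while the log2 fold change stayed between −1.07 and −0.75. Without preleukemic_77 the adjusted p was 0.0376. The fit of the compared groups alone is also the one without the nearly alike libraries preleukemic_445 and preleukemic_479.

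The partner genes of polymerase zeta did not follow Rev3l past the test. Mad2l2, which encodes the accessory subunit REV7 (chr4:148130384-148145699), had 29.6 to 48.4 CPM in preleukaemic and 31.1 to 37.7 CPM in leukaemic cells, with a log2 fold change of −0.12 (95% interval −0.75 to 0.51, adjusted p = 0.806). Rev1 (chr1:38052786-38129801), whose product is both a deoxycytidyl transferase and a scaffold for the other polymerases, had 68.6 to 102 CPM before leukaemia and 52.8, 101 and 83.5 CPM in leukemic_26, leukemic_28 and leukemic_39, with a log2 fold change of −0.14 (SE 0.23, adjusted p = 0.711). The ratio of Mad2l2 to Rev3l, per kb, was 1.60, 2.23 and 2.61 at the lowest, median and highest of the TgSpi1FA−/− preleukaemic libraries and 3.17, 3.67 and 4.56 in the leukaemic ones, without overlap. The TgSpi1FA+/+ preleukaemic libraries of model 1 (1.29 to 3.61) did overlap with the leukaemic ones. This ratio uses the Rev3l levels given above and is no separate result. Of the exon bases of Rev1, 26.6% also lie in exons of Eif5b on the opposite strand. The libraries were stranded, but the strand setting of the counting is not given in the sources used here. The effect of this overlap on the Rev1 counts is therefore not known.

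The Y-family genes showed no called change. Polk, whose polymerase kappa bypasses bulky adducts of the minor groove (chr13:96480690-96542579), had 17.2, 18.2 and 19.1 CPM in preleukemic_77, preleukemic_224 and preleukemic_40 and 16.7, 13.5 and 11.5 CPM in leukemic_26, leukemic_28 and leukemic_39. The groups did not overlap, but the log2 fold change of −0.39 (SE 0.23) had an adjusted p of 0.263. Polh encodes polymerase eta, which copies past ultraviolet dimers (minus strand, chr17:46171355-46202645). It had 56.5, 41.2 and 60.0 CPM before leukaemia and 44.9, 49.9 and 38.2 CPM in leukaemic cells, which overlapped (log2 fold change −0.25, SE 0.21, adjusted p = 0.457). Poli, for polymerase iota (chr18:70508680-70530620), had 22.1, 39.2 and 34.1 CPM and then 40.6, 24.7 and 24.9 CPM, a mixed order that left a log2 fold change of −0.08 (SE 0.28, adjusted p = 0.875). The A-family gene Poln, whose polymerase nu is related to theta (chr5:34007179-34169448), had 14 to 53 counts before and 18 to 38 counts in leukaemia (log2 fold change −0.08, 95% interval −1.52 to 1.37). At these counts a change of Poln as large as that of Polq could not be told from none.

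Rad18, the ubiquitin ligase that starts the pathway (chr6:112619850-112696686), had 77.6, 77.5 and 86.6 CPM in preleukemic_77, preleukemic_224 and preleukemic_40, and 46.3, 56.5 and 67.4 CPM in leukemic_26, leukemic_28 and leukemic_39. All leukaemic libraries were lower, and the log2 fold change was −0.51 (SE 0.20, 95% interval −0.95 to −0.06), with an adjusted p of 0.112 that missed the threshold. Usp1, on the same chromosome as Mad2l2 (chr4:98923810-98935543), was the only member with a positive estimate, 0.11 (SE 0.30, adjusted p = 0.836). Its leukaemic libraries (188 to 206 CPM) lay inside the preleukaemic range (125 to 253 CPM).

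**Figure D2:**
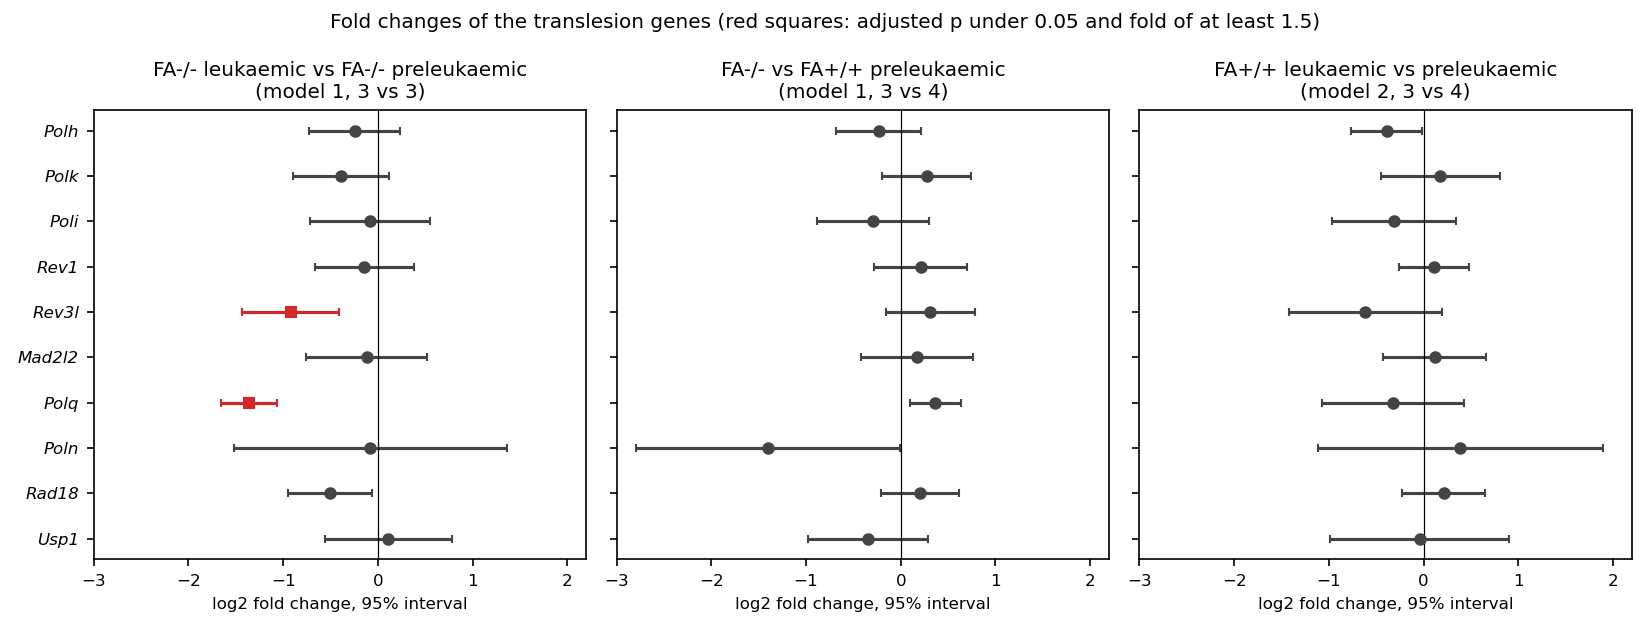
Log2 fold change (horizontal axis) with its 95% interval for each translesion gene in 3 comparisons, from edgeR's quasi-likelihood test. Red squares passed the adjusted p and the fold change, which only Polq (−1.36) and Rev3l (−0.92) did, both in TgSpi1FA−/− leukaemic against preleukaemic cells.

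The bases upstream of the start of Polq, the member with the clearest change, are shown with those of Polh, a member without a called change, so that the 2 promoters can be set side by side. They are RefSeq promoter windows (GRCm38.p6) cut to the bases in no annotated gene. Polq covers 250 bases (chr16:37011536-37011785, plus strand, 51.6% G and C). Polh covers 136 bases between its own start and that of the divergent gene Xpo5 (chr17:46202646-46202781, minus strand, 77.2% G and C). Capitals mark matches, on either strand, to 7 short motifs. The first is TTTGAA, the CHR element of cell cycle genes. The second is GAGGAA, a core bound by SPI1, also called PU.1. The others are AGATAA for GATA factors, the CCAAT element, GGGCGG for the GC box, and the E2F sequences TTTCGCGC and TTTGGCGC.
Polq: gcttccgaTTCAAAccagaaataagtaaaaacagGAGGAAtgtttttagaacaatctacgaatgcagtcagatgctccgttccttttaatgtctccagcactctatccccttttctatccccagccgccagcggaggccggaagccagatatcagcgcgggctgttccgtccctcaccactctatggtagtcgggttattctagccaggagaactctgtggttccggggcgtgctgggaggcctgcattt
Polh: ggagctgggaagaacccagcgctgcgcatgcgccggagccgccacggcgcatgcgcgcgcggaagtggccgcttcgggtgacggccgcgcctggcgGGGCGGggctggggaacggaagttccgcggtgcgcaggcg
The window of Polq held the GAGGAA core from −216 to −211 of the start and TTTGAA at −242 to −237, and a second TTTGAA spans the start itself from −3 to 2 and is not printed whole. It held no GC box. The window of Polh held a GC box at −44 to −39. GAGGAA was found in 28.3% of 32851 promoter windows, TTTGAA in 17.9% and GGGCGG in 35.7%, so these matches are common. The table of promoters held 7 of the 10 members in 10 windows. Among these, GAGGAA was in 2 windows (Polq and Polh, in the latter downstream of the start), TTTGAA in 1 (Polq), GGGCGG in 6, CCAAT in 2 (Mad2l2 and Poln) and AGATAA in 2 (both of Rad18), and neither E2F sequence was in any. A match is only a run of letters, and no binding was measured here.

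The further table allowed Polq and Rev3l to be looked at in other counts of 3 TgSpi1FA−/− leukaemic and 4 TgSpi1FA+/+ preleukaemic mice. The labels do not say whether these counts come from other libraries. The further table holds no TgSpi1FA−/− preleukaemic mouse, so the contrast differs from the one above in genotype too, and its values are given without a test. In the first table Polq had 68.9, 81.8, 83.5 and 80.0 CPM in the TgSpi1FA+/+ mice preleukemic_138, preleukemic_445, preleukemic_451 and preleukemic_479, all above the 37.8 to 41.3 CPM of the leukaemic mice. In the further table these mice had 98.2, 89.5, 76.7 and 109 CPM, and the leukaemic mice leukemic_26, leukemic_28 and leukemic_39 had 69.4, 51.7 and 31.1 CPM. The groups again did not overlap, and the ratio of the means was 0.502 in the first table and 0.544 in the further one. The leukaemic values were nearly equal in the first table and unlike each other in the further one. Depth was uneven there, with 171572736 counts for leukemic_26, 140567897 for leukemic_28 and 35497594 for leukemic_39. The part of depth in this spread was not tested. Rev3l had 71.5, 84.5, 96.4 and 78.8 CPM in preleukemic_138, preleukemic_445, preleukemic_451 and preleukemic_479 of the further table and 60.2, 63.9 and 39.03 CPM in leukemic_26, leukemic_28 and leukemic_39, again without overlap, and its ratio was 0.654 in the first table and 0.657 in the further one. Groups that do not overlap were found for 3 of 10 members in the first table (Polq, Rev3l and Poln) against 12.7% of 13335 genes with a mean of at least 10 counts that were lower (26.4% in either direction), and for 2 of 10 (Polq and Rev3l) in the further table against 7.83% of 17373 genes (18.6%). All of these members were lower in leukaemic mice. Poln did not keep its place. Its mean was 2.21 CPM in TgSpi1FA+/+ and 0.789 CPM in leukaemic mice in the first table, and 1.67 and 1.36 CPM in the further one. Both tables are of the same mice, so they do not add animals.

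**Figure D3:**
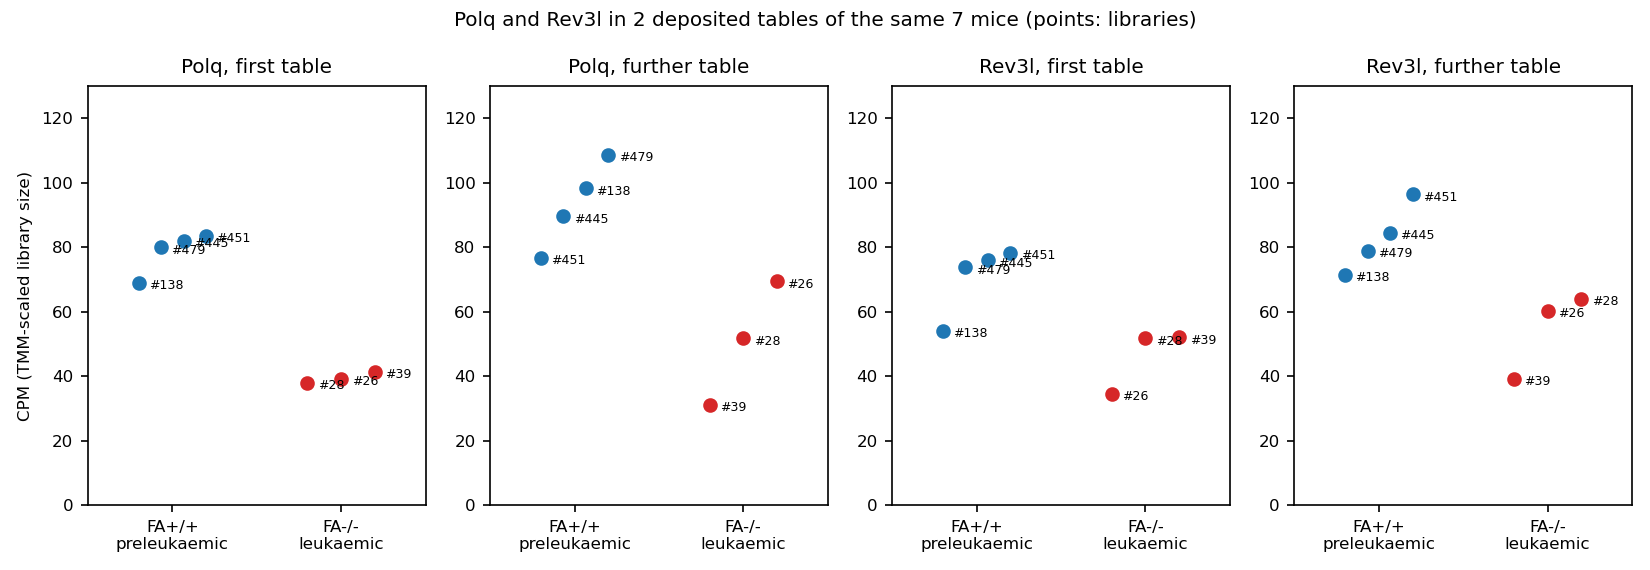
CPM (vertical axis, from 0) of Polq and Rev3l in preleukaemic TgSpi1FA+/+ and leukaemic TgSpi1FA−/− mice of model 1, in the first and in the further deposited table. Each point is the value of the mouse whose number stands beside it, and in all 4 panels the leukaemic points lie below the preleukaemic ones.

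The second comparison asked what the loss of Fanca changed in preleukaemic cells. None of the 10 members passed the test, and only 0.00747% of the 13393 genes (1 gene) did with edgeR. Fanca itself, the deleted gene, did not pass either (log2 fold change −5.26, SE 0.65, adjusted p = 0.0759 from edgeR). A gene that misses the call in this comparison is therefore not shown to be unchanged. At an unadjusted p under 0.05 there were 2 members, Polq and Poln, against 8.65% of all genes, and DESeq2's Wald test called 256 genes and 0 members. Polq was higher in each TgSpi1FA−/− library (92.0 to 115 CPM) than in each TgSpi1FA+/+ library (68.9 to 83.5 CPM), with a log2 fold change of 0.37 (SE 0.12, 95% interval 0.10 to 0.63, unadjusted p = 0.0133, adjusted p = 0.535 from edgeR). Polk was also apart, with 17.2 to 19.1 CPM against 12.8 to 17.1 CPM (log2 fold change 0.27, SE 0.21, adjusted p = 0.759). Such separation was found for 2 of 10 members, both higher, and for 4.26% of all genes in that direction (8.53% in either). For Polq the direction was opposite to that of the leukaemic change, and the preleukaemic TgSpi1FA−/− mice enter both comparisons. Rev3l (67.3 to 101 CPM against 54.1 to 78.3 CPM) had a log2 fold change of 0.31 (SE 0.21, adjusted p = 0.711). Usp1 had one of −0.34 (SE 0.28), with 125, 170.1 and 253 CPM in TgSpi1FA−/− and 140 to 284 CPM in TgSpi1FA+/+ cells. Polh (−0.23), Poli (−0.29), Rev1 (0.21), Mad2l2 (0.17) and Rad18 (0.21) had overlapping groups and adjusted p values between 0.787 and 0.904.

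The largest estimate of this comparison among the members was that of Poln, with a log2 fold change of −1.40 (SE 0.62, unadjusted p = 0.0493, adjusted p = 0.576). It had 2.37 CPM in preleukemic_445, 3.78 CPM in preleukemic_479, 1.31 CPM in preleukemic_451 and 1.36 CPM in preleukemic_138, and 0.460, 1.55 and 0.485 CPM in preleukemic_77, preleukemic_224 and preleukemic_40. The 2 highest values were those of the pair of nearly alike libraries. Without both, the estimate was −0.68 (SE 0.70, unadjusted p = 0.361).

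The genes next to Poln were raised in the same 2 libraries. Within 1 Mb of its start, 30 other genes were tested, and their median level was 1.48 above the median library on the log2 scale in preleukemic_445 and 1.48 in preleukemic_479, with all 30 of them above 0 in each. In the other 8 libraries this median lay between −0.27 and −0.01. The raised genes ran from −1711 kb to 936 kb of the start of Poln in genome coordinates. Of 37 other genes in that stretch, 36 were above the median library in both mice and 27 were more than 1 above it. Chromosome 5 as a whole did not move with them. Its median was −0.0089 in preleukemic_445 and −0.0038 in preleukemic_479 over 865 genes, which include the raised stretch. In the further table the genes within 1 Mb had a median of 0.01 in preleukemic_445 and 0.30 in preleukemic_479, and Poln itself was lower there in preleukemic_445 (0.728 CPM) and preleukemic_479 (0.972 CPM) than in preleukemic_138 (1.92 CPM) and preleukemic_451 (3.08 CPM). In the first table Poln was thus raised along with a stretch of its chromosome in 2 libraries. It lay 0.78 above the median library in preleukemic_445 and 1.35 above it in preleukemic_479. The part of that stretch in the difference of Poln between the genotypes was not tested. Poln shares 108 exon bases with Haus3 on its own strand.

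**Figure D4:**
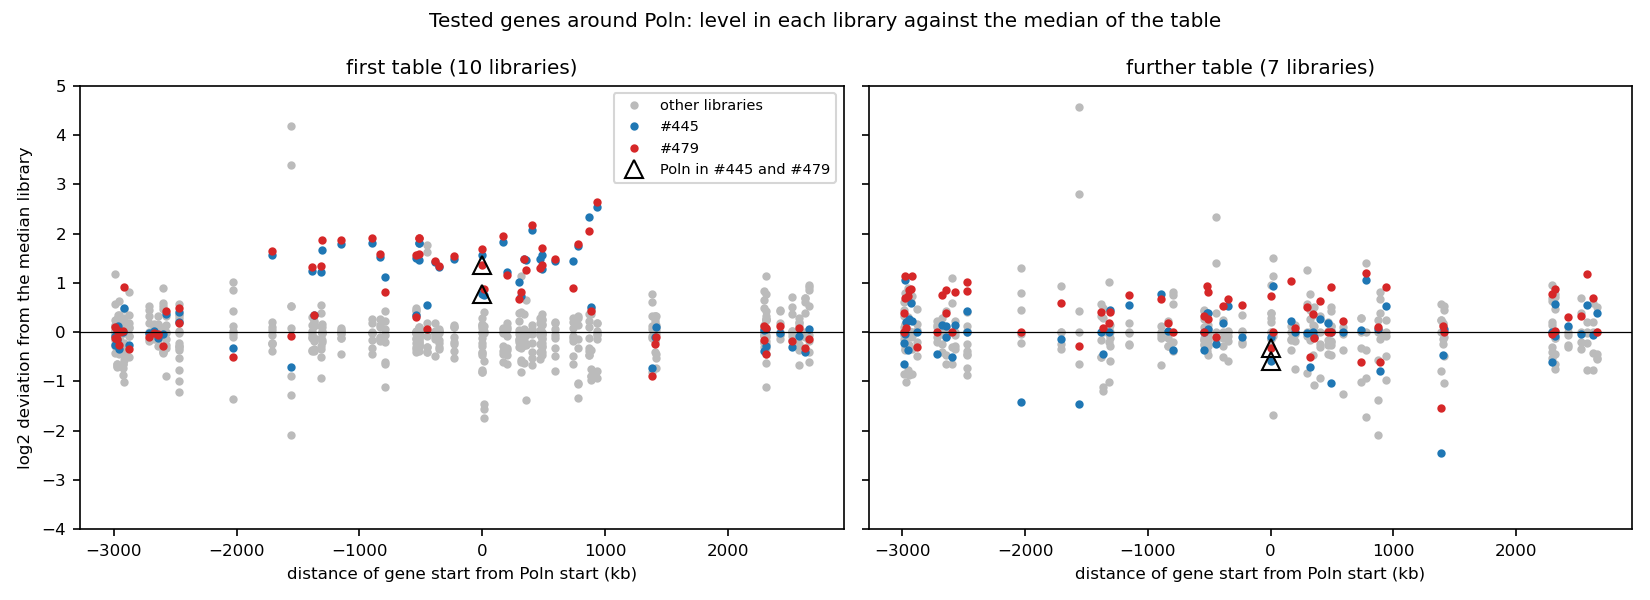
Level of each tested gene within 3 Mb of Poln (log2 deviation from the median library of the same table, vertical axis) against the distance of its start from the start of Poln (kb). Points are genes in single libraries, with preleukemic_445 in blue, preleukemic_479 in red all others in grey and triangles for Poln itself in these 2 mice; in the first table a run of genes around Poln lies near 1.5 in both mice, and in the further table it does not.

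In 4 other members a whole chromosome stood more than 0.2 from the median library in 1 library of model 1, and the member lay on the same side. Poli was lowest in preleukemic_77 (22.1 CPM, a log2 deviation of −0.67 from the median library), where 332 other genes of chromosome 18 had a median of −0.79. Polk had a deviation of −0.36 in preleukemic_451 (12.8 CPM), where 513 genes of chromosome 13 had a median of −0.53. Mad2l2 was highest in preleukemic_224 (48.4 CPM, 0.56 above), where 815 genes of chromosome 4 had a median of 0.26, although Usp1 on the same chromosome was on the other side there (−0.69). Rev1 was 0.36 above in leukemic_28 (101 CPM), where 780 genes of chromosome 1 had a median of 0.29. In model 2, 855 genes of chromosome 5 had a median of 0.32 in leukemic_921, and Poln had a deviation of −0.06 there. For all other members and libraries of both models the chromosome median lay between −0.17 and 0.17. Polq (chromosome 16) and Rev3l (chromosome 10) were not among these members. In the comparison of TgSpi1FA−/− leukaemic with preleukaemic cells, 17 genes within 1 Mb of Polq had a median log2 fold change of −0.23 with 1 called higher and 0 lower, and 11 genes around Rev3l had a median of −0.07 with 1 called higher and 1 lower. The part of these chromosome shifts in the values of the members was not tested.

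The third comparison asked what changed between preleukaemic and leukaemic cells when FANCA was present (model 2). None of the 10 members passed the test, nor did any of 12970 genes (0.0%) with edgeR. At an unadjusted p under 0.05 there were 2587 genes (19.9%) and 1 member, and DESeq2's Wald test called 470 genes and 0 members. That member was Polh, with 65.1, 61.2, 58.9 and 69.0 CPM in the preleukaemic mice preleukemic_633, preleukemic_663, preleukemic_812 and preleukemic_837, and 44.1, 51.6 and 50.0 CPM in the leukaemic mice leukemic_601, leukemic_606 and leukemic_921. All leukaemic libraries were lower, with a log2 fold change of −0.39 (SE 0.16, 95% interval −0.76 to −0.01, unadjusted p = 0.0441, adjusted p = 0.239 from edgeR). The exact permutation test gave p = 0.05714, the smallest that 3 libraries against 4 allow (two-sided). It was the only one of 10 members with groups apart, against 10.4% of all genes that were lower (20.1% in either direction).

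Polq had 41.9, 31.8, 19.4 and 45.6 CPM in the preleukaemic mice preleukemic_633, preleukemic_663, preleukemic_812 and preleukemic_837 of model 2 and 33.1, 25.4 and 24.8 CPM in the leukaemic mice leukemic_601, leukemic_606 and leukemic_921. The groups overlapped, and the log2 fold change was −0.32 (95% interval −1.07 to 0.43, adjusted p = 0.615). Rev3l had 37.1, 43.6, 26.05 and 73.2 CPM and then 28.4, 28.2 and 31.6 CPM, with a log2 fold change of −0.61 (95% interval −1.42 to 0.19, adjusted p = 0.361). The leukaemic libraries were alike, and the spread came from the preleukaemic ones, where preleukemic_812 was lowest and preleukemic_837 highest for both Polq and Rev3l. Usp1 was uneven in both groups, with 142 CPM in preleukemic_812 and 106 CPM in leukemic_606 against 241 to 315 CPM in the 5 other libraries. Poln had 10 to 53 counts in model 2 (log2 fold change 0.39, SE 0.65). Polk (0.18), Rad18 (0.21), Rev1 (0.11), Mad2l2 (0.12) and Poli (−0.31) had overlapping groups, with adjusted p values between 0.569 and 0.815.

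Cell type markers differed beside these values in model 2. Mast cell markers summed to 1.18 to 7.47 CPM in preleukaemic and 65.1 to 110 CPM in leukaemic libraries, and 4 of 4 tested had a higher estimate (median log2 fold change 4.38), although none was called. Ms4a2, a chain of the IgE receptor, had the smallest p of them (4.94, SE 0.67, adjusted p = 0.162 from edgeR). Erythroid markers summed to 4011 to 5323 CPM and then 2177 to 3956 CPM, and 10 of 10 had a lower estimate (median −0.81), with none called. The part of these shifts in the values of the members was not tested.

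The leukaemic changes of both models were then compared directly, as a difference of differences over all 17 libraries. None of the 10 members passed with edgeR, against 4.61% of 14597 genes. At an unadjusted p under 0.05 there were 2 members (Polq and Rad18) and 25.8% of all genes, and DESeq2's Wald test called 1 member. Polq came nearest, with a leukaemic change that was 1.06 lower on the log2 scale in model 1 than in model 2 (SE 0.32, 95% interval −1.75 to −0.36, adjusted p = 0.0658 from edgeR). Leaving out preleukemic_812 or preleukemic_837 of model 2 lowered its adjusted p to 0.0364 or 0.0398, and DESeq2's Wald test gave 0.0383. Over all 13 mice left out in turn, its adjusted p went up to 0.141, and over the other settings up to 0.0985. Polq gained a call in these 3 alternatives and stayed without one in the other 15. Rad18 followed (−0.73, SE 0.26, adjusted p = 0.0989), since its estimate was below 0 in model 1 and above 0 in model 2. For Rev3l the difference was −0.32 (95% interval −1.20 to 0.56, adjusted p = 0.654), so a larger change in either model was not shown. Ms4a2 was the only 1 of 4 mast cell markers called by this difference (−10.0, SE 2.39, adjusted p = 0.0369), and 0 of 10 erythroid markers were called (median 0.31). The part of these markers in the difference was not tested. Genotype, strain, library protocol and the way the leukaemia arose (after blood transfusion only in model 2) differ together between the models. They cannot be told apart in this difference.

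Other genes of the pathway were described by fixed lists, with the same fits. The list of PCNA loading and ubiquitination held 28 genes, all tested. In TgSpi1FA−/− leukaemic against preleukaemic cells 1 of them was called (3.57%), and the median log2 fold change was −0.08. That gene was Hltf, a ligase and translocase that extends the ubiquitin chain on PCNA, with 29.7 to 47.9 CPM in leukaemic and 58.4 to 74.4 CPM in preleukaemic cells (log2 fold change −0.85, SE 0.23, adjusted p = 0.0394). The list of partner subunits and other polymerases and helicases of damaged DNA held 13 genes, of which 3 (23.1%) were called, all lower, with a median of −0.49 and 11 of 13 below 0. Wrn, the helicase lost in Werner syndrome, fell the most, from 195 to 316 CPM before leukaemia to 72.7 to 122 CPM in leukaemia (log2 fold change −1.55, SE 0.25, adjusted p = 0.01001). Wrnip1, the ATPase that binds it, had 82.1 to 84.1 CPM before and 45.5 to 49.4 CPM in leukaemia (−0.81, SE 0.22, adjusted p = 0.0402). Pold1, the catalytic subunit of polymerase delta, had 141 to 190.0 CPM and then 86.2 to 124 CPM (−0.66, SE 0.17, adjusted p = 0.0346). The 13.3% of all genes called in this comparison is the background for these shares.

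In the preleukaemic comparison of the genotypes no gene of either list was called. The smallest p values belonged to Ube2a (log2 fold change −0.20, SE 0.15) and Rfc2 (−0.31, SE 0.24) in the first list and to Polb (0.40, SE 0.15) and Helq (0.34, SE 0.19) in the other. In model 2 none was called either, where edgeR called none of all 12970 genes. At an unadjusted p under 0.05 from edgeR there were 13 of 28 genes of the first list and 4 of 13 of the other, against 19.9% of all genes. The smallest p values were those of Usp7, a deubiquitinase (−0.97, SE 0.20), Vcp, an unfoldase that extracts ubiquitinated proteins (−1.26, SE 0.27), Wrn (−1.01, SE 0.22) and Polb, the polymerase of base excision repair (0.71, SE 0.16), all with an adjusted p of 0.162. Wrn had 54.4 to 74.6 CPM in leukaemic and 104 to 164 CPM in preleukaemic cells of model 2. The difference of both leukaemic changes called 4 of 28 genes of the first list (14.3%), beside 4.61% of all genes. In all 4 the leukaemic change was lower in model 1 than in model 2. They were the clamp loader genes Rfc3 (−1.45, SE 0.35, adjusted p = 0.0383) and Rfc4 (−0.93, SE 0.22, adjusted p = 0.0380), Hltf (−1.25, SE 0.34, adjusted p = 0.0484) and Ube2b, the ubiquitin-conjugating partner of RAD18 (−1.06, SE 0.27, adjusted p = 0.0412). In the other list it called 2 of 13 (15.4%), Polb (−1.23, SE 0.21, adjusted p = 0.0285) and Parpbp (−0.96, SE 0.23, adjusted p = 0.0380). These calls were fragile, since of the 673 genes called by this difference only 1, 2, 4 and 4 were left over all genes when leukemic_28, leukemic_39, preleukemic_77 or preleukemic_224 was left out.

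**Figure D5:**
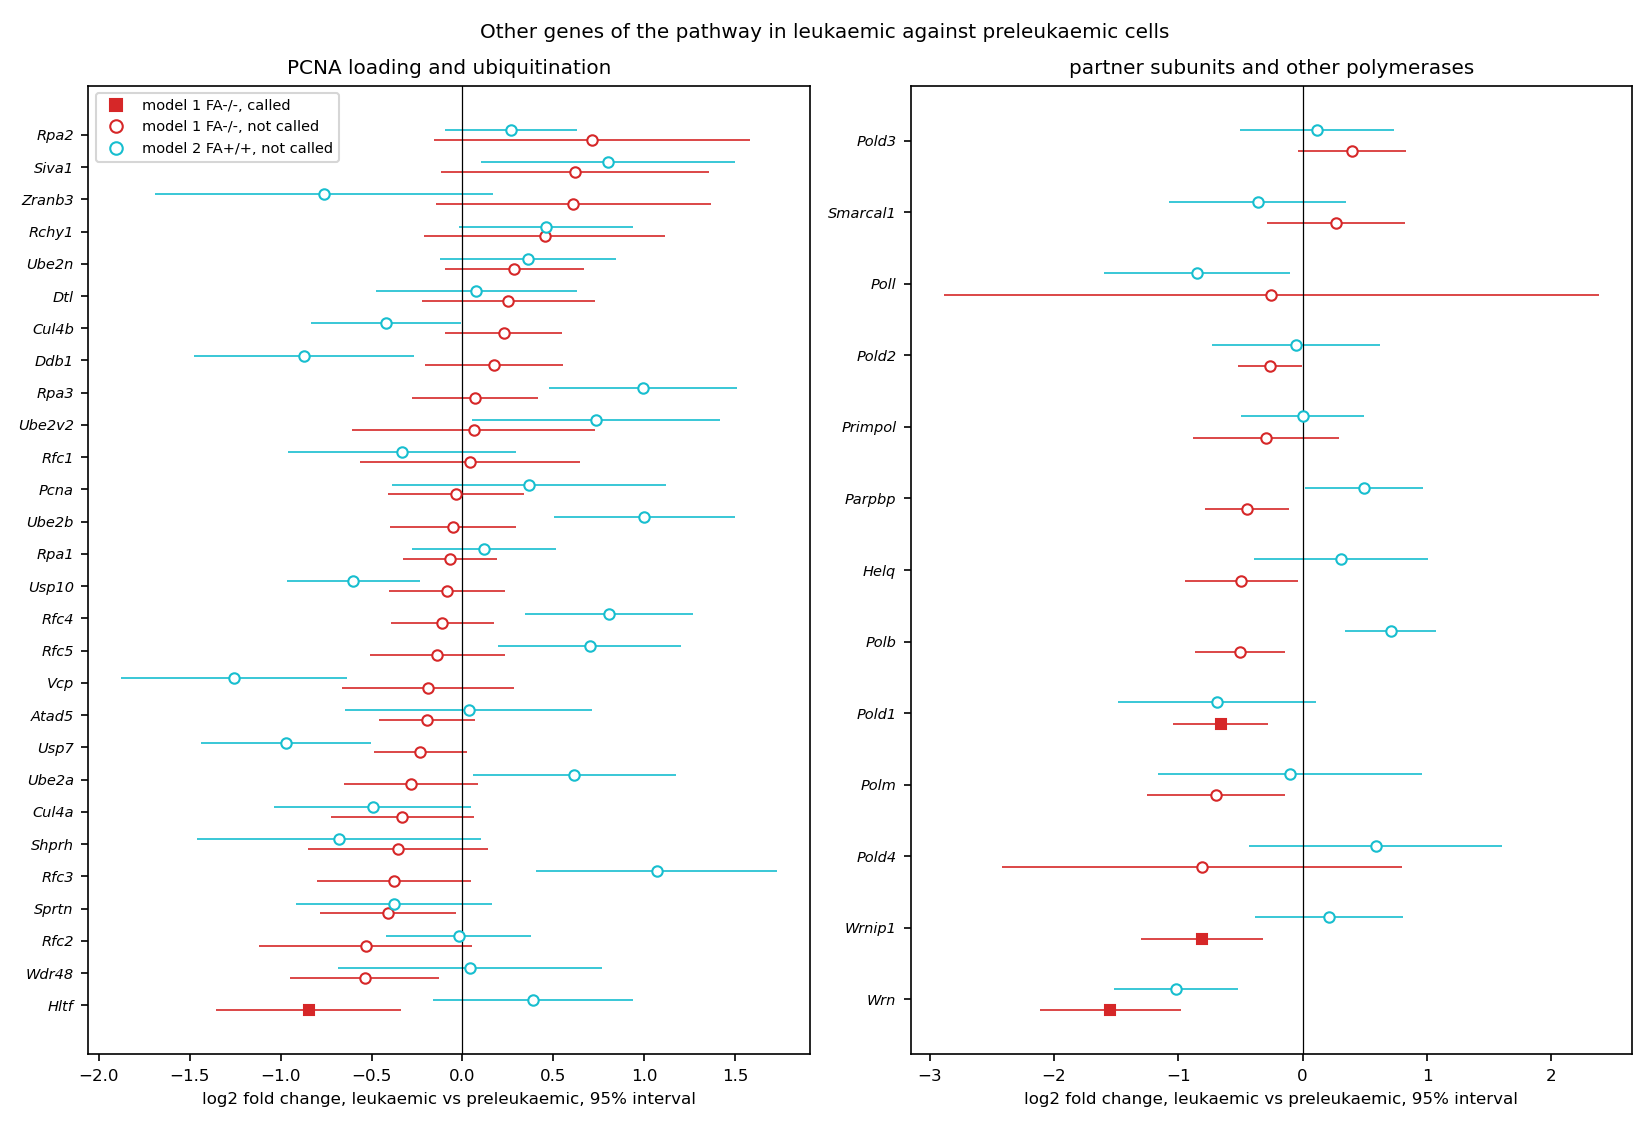
Log2 fold change of leukaemic against preleukaemic cells (horizontal axis, 95% interval) for 28 genes of PCNA loading and ubiquitination and 13 partner subunits, polymerases and helicases, in TgSpi1FA−/− cells of model 1 (red, filled squares where called) and TgSpi1FA+/+ cells of model 2 (cyan). Hltf, Wrn, Wrnip1 and Pold1 are the called genes, all lower in model 1.

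Proliferation and cell type markers were measured beside these values. Of 14 genes of cycling cells, 7 had higher and 7 lower estimates in TgSpi1FA−/− leukaemic cells, with a median log2 fold change of −0.01. Aurka, a mitotic kinase, rose (1.04, SE 0.19, adjusted p = 0.0148), and Rrm2, a subunit of ribonucleotide reductase, fell (−1.11, SE 0.30, adjusted p = 0.0415). The summed level of the 14 genes was 4205 to 5606 CPM in leukaemic and 5399 to 5547 CPM in preleukaemic TgSpi1FA−/− cells. No gene of this list was called in the other 3 comparisons, where the smallest p values were those of Ccnb2 and Ccna2 between the genotypes (−0.41 and −0.32), of Tyms and Plk1 in model 2 (1.24 and −0.69) and of Rrm2 and Plk1 for the difference (−1.39 and 0.82). Erythroid markers summed to 2233 to 3587 CPM in TgSpi1FA−/− leukaemic and 3810 to 4724 CPM in preleukaemic cells, with 2 of 10 called, both lower (Klf1, −1.27, and Hbb-bt, −5.94). Megakaryocyte markers summed to 173 to 274 CPM and 45.5 to 59.8 CPM, with Itga2b the highest of them and the only 1 of 5 called, higher (3.20, SE 0.38, adjusted p = 0.00472). Myeloid markers, of which Cd68 was highest, summed to 1.97 to 3.81 CPM over both groups, and B lymphoid markers, led by Cd79a, to 0 to 0.228 CPM. T lymphoid markers, nearly all Lck, summed to 3.86 to 5.54 CPM in leukaemic and 0.819 to 1.49 CPM in preleukaemic cells, and Lck was called higher. Mast cell markers, led by Ms4a2, summed in these 2 groups to at most 16.7 CPM and stroma and endothelium markers, led by Col1a2, to at most 274 CPM, both in a preleukaemic library, with Kdr called higher in leukaemia. The part of these shifts in the falls of Polq, Rev3l, Wrn, Wrnip1, Pold1 and Hltf was not tested.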

How the data were processed

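The authors deposited counts, as whole numbers of reads per Ensembl gene without normalization, for 10 libraries of model 1 and 7 of model 2, and further counts for 7 mice of model 1. The submitters' processing notes name STAR 2.5.3a, HTSeq 0.6.1p1, bcl2fastq 2.17.1.14 and mm10. The annotation release and the strand setting of the counting are not given in the sources used here, so the effect of overlapping genes on the counts is not known. Protocol 2 (model 1) used 400 ng of RNA with 8 min of fragmentation and protocol 1 (model 2) 300 ng with 2 min, each with 12 PCR cycles.

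Groups followed the sample titles. After filterByExpr, counts were scaled by TMM and tested with edgeR 4.0.16 (glmQLFit and glmQLFTest, R 4.3.3) over all genes, with 3 groups in model 1 and 2 in model 2. A gene was called where its p, adjusted by Benjamini-Hochberg, was under 0.05 and its fold change reached 1.5. The comparison of both leukaemic changes was an interaction over 17 libraries and the genes of both tables. CPM use the TMM-scaled library size. The alternatives were DESeq2 1.42.0 (size factors and Wald test), no filter, 1 CPM in 3 libraries, robust empirical Bayes, only the compared groups, preleukemic_445 and preleukemic_479 summed, and each mouse left out. Single genes were also tested by two-sided exact permutation (scipy 1.17.1). The fits were tested on simulated counts. For positions, 99.79% of 28600 identifiers were found in GENCODE M21 (GRCm38). The depth leaves counting error small except for Poln. P-values measure the spread between single cultures of mice. In the fits of model 1 and of the difference, that spread includes preleukemic_445 and preleukemic_479, which may not stand for 2 mice. These 2 libraries were summed, or left out together, only for the comparison of the genotypes. The leukaemic comparison of model 1 was without them only where the compared groups were fitted alone.

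The named genes were the 10 members, Fanca, and from each list the called genes, or the 2 with the smallest p where none was called. The members and lists were chosen with earlier results of these data known. Leaving out preleukemic_445 and preleukemic_479 together, and the levels over whole chromosomes and around Poln, were added after seeing the data. The table of model 2 was deposited again as a copy, which was not used here.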

Additional observations from a re-analysis of the deposited data

Results flagged for a closer look

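In groups of 4 libraries, 20 sets of values of the members were looked at for a library far from the others. In 1 such a library was found, where chance gives about 1 in 20 for independent libraries. That rate is only a rough guide, because the sets share libraries and preleukemic_445 and preleukemic_479 were nearly alike. Polk had 18.4 CPM in the preleukaemic mouse preleukemic_837 of model 2 and 14.1 to 14.6 CPM in the 3 other mice, so that the gap took 0.89 of the range.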

How the results depend on the processing

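Of 569 values of single members under the alternatives, 538 kept their direction and their side of the threshold, 6 lost the call, 3 gained it and 22 changed sign. The calls lost were those of Rev3l given above, and the calls gained were those of Polq in the difference between the models. With only the compared groups fitted, 1 member was called in TgSpi1FA−/− leukaemic against preleukaemic cells. DESeq2's Wald test called 3099 genes there, 256 between the genotypes, 470 in model 2 and 2037 for the difference between the models, with 1 member in the last. Without a filter, 4 genes were called between the genotypes and 279 for the difference. Leaving out each mouse gave 1 to 2 members and 414 to 2319 genes in the leukaemic comparison of model 1, 0 members and 1 to 16 genes between the genotypes, 0 members and 0 to 1 genes in model 2, and 0 to 1 members and 1 to 1359 genes for the difference. The lowest of these, 414 and 1 for the difference, were without leukemic_28. The log2 ratio of Poln, −1.48 in the first table, was −0.30 in the further table.

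All 22 changes of sign came with 1 mouse left out and concerned values without a call. The log2 fold changes then ranged, in TgSpi1FA−/− leukaemic against preleukaemic cells, from −0.35 to 0.12 for Poli, from −0.34 to 0.084 for Rev1, from −0.24 to 0.15 for Mad2l2, from −0.35 to 0.75 for Poln and from −0.088 to 0.43 for Usp1. Between the genotypes Mad2l2 ranged from −0.089 to 0.30, and in model 2 Poln ranged from −0.089 to 0.76 and Usp1 from −0.25 to 0.31. For the difference between the models the range was −0.015 to 0.23 for Polh, −0.066 to 0.40 for Poli, −0.41 to 0.012 for Mad2l2, −0.85 to 0.33 for Poln and −0.21 to 0.46 for Usp1. In 9 of the 22 the mouse left out was preleukemic_224. The cause was not tested.

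The median log2 fold change of all genes in the leukaemic comparison of model 1 was −0.0012, and 0.12 without a filter. For the difference it was 0.05, and 0.10 with DESeq2's size factors and 0.14 without a filter. No paired analysis was possible because each mouse has its own number and no number is shared between groups. Depth limits Poln only, with 10 to 119 counts in a library.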
